A study of Mus musculus with 11 samples.

Results

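Cajal-Retzius cells are among the earliest neurons of the cerebral cortex, and 9 genes used to recognize them were followed in embryonic mouse cortex with and without Kif20a, a mitotic kinesin. The genes were Reln, Trp73, Lhx1, Lhx5, Calb2, Ebf2, Ebf3, Nhlh2 and Cacna2d2. They were picked by gene symbol, and all 9 were found among the 20475 genes of each expression table.

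Poly(A) RNA of E12.5 cortical cells was sequenced in 11 libraries, which form 2 comparisons with wild-type libraries of their own. The germline comparison held 3 libraries of wild-type littermates and 3 of homozygous knockout-first mice. In the latter the Kif20a gene is interrupted by a cassette of LacZ and neomycin resistance. This strain came from 1 embryonic stem cell clone and was crossed to C57BL/6J. In the inducible comparison there were 2 libraries of wild type against 3 of knockout. Its knockouts carried Nestin-CreERT2 and Kif20a fl/fl. Its controls were littermates, given by the study for this line as Kif20a fl/fl without the Cre transgene and called wild type, so the transgene also differed between the groups. The cassette had been removed with Flp recombinase before these mice were made. CreERT2 acts only after tamoxifen, which the dams received at E9.5 and E10.5, and the Nestin promoter directs it to neural progenitors, so cells outside that lineage and neurons born earlier were not its target. The labels name the tissue forebrain, while the study describes cortex, and whether a library was made from 1 embryo or from several was not stated in the sources used here. P values therefore measure only the spread between these libraries.

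Cajal-Retzius cells arise at the edges of the cortical sheet, among them the cortical hem, the septum and the border between pallium and subpallium, and spread over the surface beneath the pia. They secrete reelin, which binds receptors on migrating neurons and is needed for the normal layering of the cortex. Cells from the hem and the septum express the p53 relative p73, while several of the other genes followed here also mark newborn neurons, the thalamus or the ventral forebrain. In bulk RNA, fewer cells of a type and less RNA per cell cannot be told apart.

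The promoters of Reln and Nhlh2 are shown because these were the most and the least variable genes of the set among the germline libraries, and those of Trp73 because the gene has more than 1 start. Of the 9 genes, 6 had an entry in the RefSeq promoter table (build GRCm38.p6), with 2 entries for Trp73. The 250 bases before the annotated start are given 5′ to 3′ on the strand of the gene, and capitals mark the GC box GGGCGG on either strand. The Reln promoter lies at chr5:22344706-22344955 on the minus strand, the 2 Trp73 promoters at chr4:154139876-154140125 (upstream start) and chr4:154097174-154097423 (internal start), both on the minus strand, and the Nhlh2 promoter at chr3:102009895-102010144 on the plus strand.
Reln: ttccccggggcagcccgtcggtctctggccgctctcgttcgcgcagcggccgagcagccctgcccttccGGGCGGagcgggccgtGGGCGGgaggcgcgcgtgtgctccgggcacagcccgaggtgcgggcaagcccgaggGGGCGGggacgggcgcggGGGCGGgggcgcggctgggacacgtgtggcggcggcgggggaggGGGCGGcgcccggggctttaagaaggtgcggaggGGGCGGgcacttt
Trp73, upstream start: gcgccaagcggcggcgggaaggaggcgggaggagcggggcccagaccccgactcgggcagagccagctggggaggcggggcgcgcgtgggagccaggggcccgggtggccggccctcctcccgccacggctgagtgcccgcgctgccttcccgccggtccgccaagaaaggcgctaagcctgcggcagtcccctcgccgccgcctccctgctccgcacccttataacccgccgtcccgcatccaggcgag
Trp73, internal start: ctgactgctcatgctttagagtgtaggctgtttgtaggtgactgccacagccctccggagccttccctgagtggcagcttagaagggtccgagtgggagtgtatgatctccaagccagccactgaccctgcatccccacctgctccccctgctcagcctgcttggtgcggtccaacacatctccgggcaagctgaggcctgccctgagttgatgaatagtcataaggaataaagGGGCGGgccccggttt
Nhlh2: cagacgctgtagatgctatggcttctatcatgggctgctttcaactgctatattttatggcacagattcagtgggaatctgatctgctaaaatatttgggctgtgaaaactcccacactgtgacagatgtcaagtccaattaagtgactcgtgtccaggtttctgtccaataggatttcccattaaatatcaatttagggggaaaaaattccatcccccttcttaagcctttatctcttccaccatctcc

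The Reln sequence was 80.0% G and C with 37 CpG dinucleotides and 6 GC boxes, against a median of 52.4% and 6 CpG over the 32851 promoters of the table. Ebf3 (80.0% and 43 CpG), the upstream Trp73 start (77.2% and 31), Cacna2d2 (74.4% and 34) and Lhx1 (64.8% and 26) were likewise above those medians. Nhlh2 stood apart with 42.0% G and C and 2 CpG, and the internal Trp73 start, which lies 42702 bases from the upstream one, had 58.4% and 6. A GC box was found in 32.7% of all promoters and in those of Reln, Ebf3 (3 copies), Cacna2d2 (1 copy) and the internal Trp73 start (1 copy). The E-box CANNTG, the letters bound by basic helix-loop-helix factors such as the Nhlh2 protein, was present in 66.2% of all promoters, at 1 copy in Reln and in each Trp73 sequence and at 2 copies in Nhlh2. The EBF palindrome TCCCNNGGGA (0.779% of all promoters) and the homeodomain core TAATTA (4.84%) were in none of the 7 sequences. The counts per gene do not distinguish transcripts, so the 2 Trp73 starts cannot be told apart in the values that follow.

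Values are normalized counts, reads per gene scaled between the libraries of a table by the authors. Summed over all genes they came to 13048716 to 15551274 in the germline and 24118520 to 24497307 in the inducible libraries, and the 9 genes ranged from 59.25 to 9593, far above the least level tested, a mean of 10. Normalized counts of Kif20a itself lay between 2295 and 2680 for germline wild type and between 374 and 503 for germline knockout. In the inducible comparison they lay between 4760 and 4844 in the wild-type and between 2853 and 3125 in the knockout libraries. The study places the signal left in the germline knockouts in the first exons, as the cassette disrupts the full-length transcript. For the inducible knockouts it reports that much signal remained and proposes varied Cre levels, which was not tested here. Germline knockout replicates 1 and 2 stood apart from the other germline libraries. Their median over 12 hypoxia genes was 2.36 and 2.94 above the wild-type mean on the log2 scale, and 0.27 in knockout replicate 3. The summed counts of 12 cranial mesenchyme genes were 615 in knockout replicate 2, 22608 in replicate 1 and 5230 to 11381 elsewhere. The summed counts of 15 pan-neuronal genes were 29825, 108160 and 35381 in knockout replicates 1 to 3, against 53668 to 62310 in the wild type.

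Divided by the GENCODE M1 exon bases of each gene on mm9, Nhlh2 was highest and Lhx1 lowest in both sets of wild-type libraries. Reads were counted over RefSeq exons, while these lengths join all annotated exons of a gene (19845 bases for Reln, 3353 for Nhlh2). Where the 2 annotations differ, the value per kb shifts. The order of the genes, Nhlh2 over Reln included, therefore holds for these lengths only and was not checked with RefSeq lengths. Nhlh2, a transcription factor of newborn neurons, was highest in the germline wild type at 289 ± 32.6 normalized counts per kb (SD, n = 3), and Reln came next at 203 ± 75.2. The ranges of these genes overlapped, at 263 to 325 and 128 to 278 per kb. Calb2, Ebf2, Cacna2d2, Lhx5, Ebf3 and Trp73 followed at means from 157 down to 94.9 per kb, with ranges that overlapped between each pair of neighbors. Lhx1 was lowest at 33.2 ± 7.86 per kb, and its highest library (42.0) stayed under the lowest of Trp73 (79.1). In the inducible wild type Nhlh2 was again highest at 379 ± 26.1 per kb (n = 2) and Lhx1 lowest at 71.9 ± 8.64, both without overlap with their neighbors. Lhx5 came second there at 287 ± 47.8 per kb, and its range overlapped that of Calb2 (255 ± 18.3), as did the range of Calb2 that of Reln (237 ± 31.9). Reln overlapped Ebf2 (225 ± 10.2 per kb), and Trp73 (213 ± 6.64) overlapped Cacna2d2 (208 ± 28.5). The nearest libraries of Ebf2 (218 per kb) and Trp73 (also 218) and of Cacna2d2 (188) and Ebf3 (186) were almost level. The tables were normalized separately, so levels were not compared across them.

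**Figure D1:**
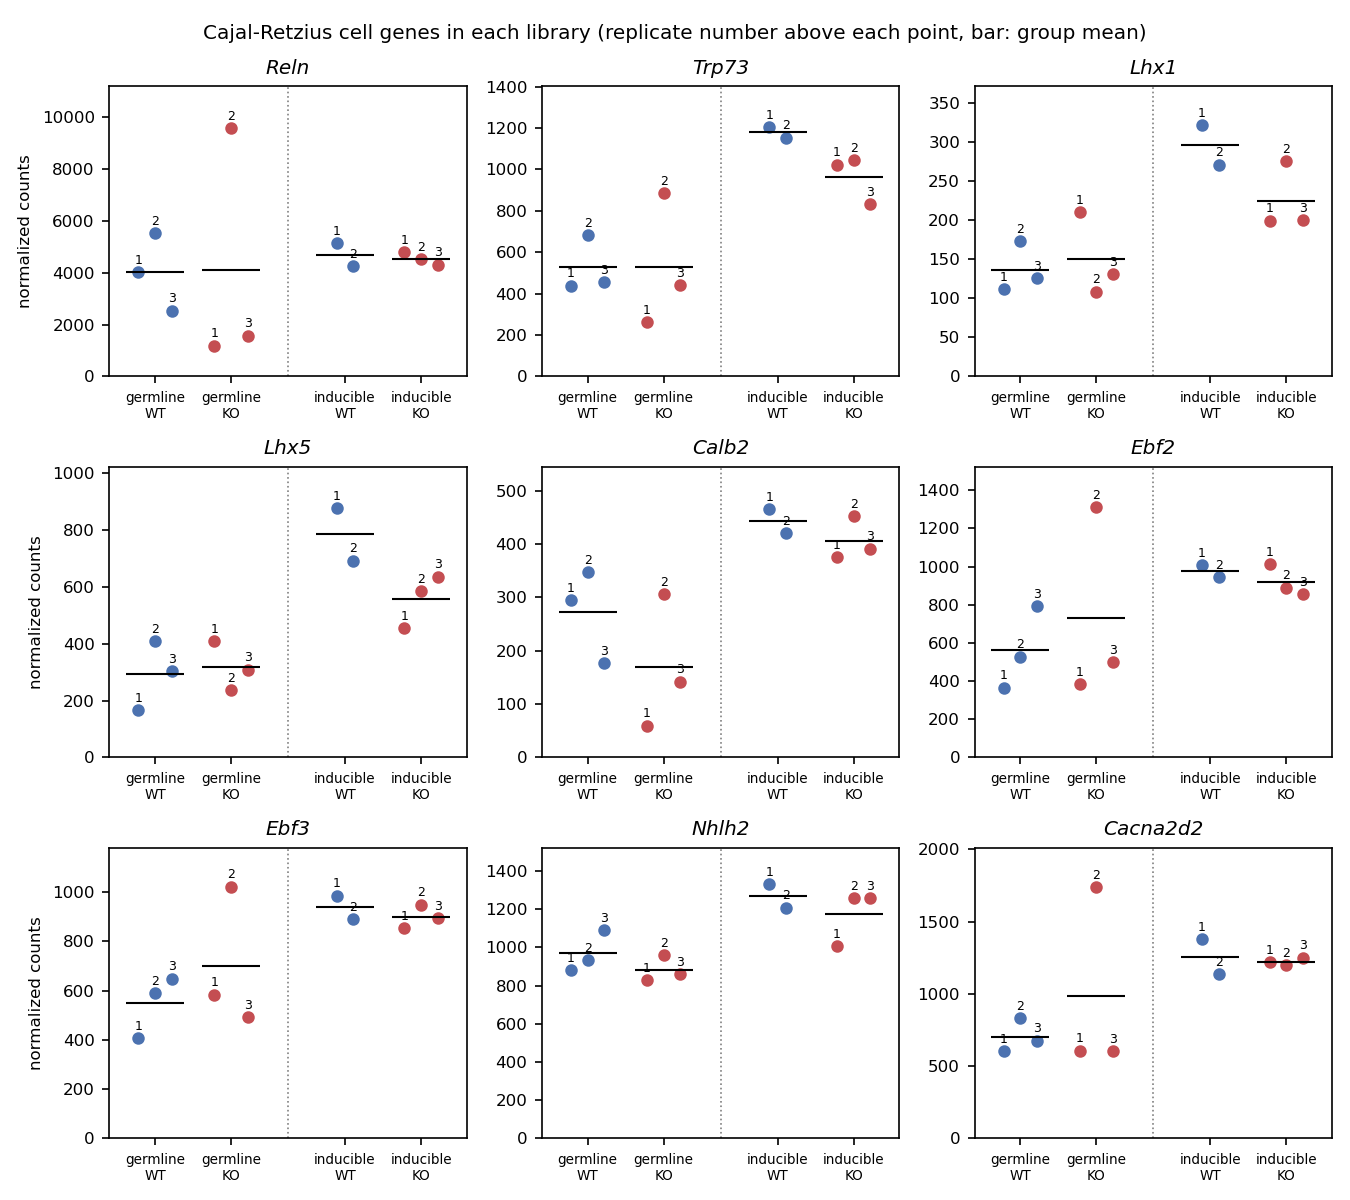
Normalized counts (linear axis from 0) of the 9 genes in each library, in 1 panel per gene, with germline and inducible libraries side by side; each point is 1 library and each bar the mean of a group (WT, wild type; KO, knockout), with the 2 comparisons normalized separately. The germline knockout libraries of Reln spread from 1187 to 9593, whereas the inducible knockout libraries of the same gene lie between 4316 and 4804.

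The first question was whether the genes differed between germline knockout and wild-type cortex. None of the 9 passed a fold change of 1.5 with an unadjusted P of at most 0.05 in limma, in either direction, where 0.667% of the 13938 genes tested were lower and 2.07% higher by that rule. Also at an unadjusted P of 0.05 alone the count was 0, beside 5.39% of all genes, and at an adjusted p of 0.05 it was 0, beside 0.00717%. Wild-type and knockout libraries overlapped for all 9 genes, while 7.55% of all genes lay without overlap lower and 5.9% higher in the knockout. The median log2 fold change of the genes was 0.0999, with 5 above 0 and 4 below, and that of all genes was −0.0433. The spread between the knockout libraries was large for several of these genes, so the intervals were wide and changes of more than 2-fold in either direction lay inside some of them.

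Reln (mm9, chr5:21390272-21850523, minus strand) encodes reelin, the secreted glycoprotein for which these cells are known. Its normalized counts were 4014, 5521 and 2535 for wild type against 1187, 9593 and 1573 for knockout. Knockout replicate 2 was above every wild-type library, and knockout replicates 1 and 3 were below every one of them, with a highest-to-lowest ratio of 8.08 among the knockouts and 2.18 among the wild types. The means were almost level, 4023 ± 1493 and 4118 ± 4746 (SD, n = 3), and the fitted log2 fold change was −0.55 (SE 0.76, 95% interval −2.34 to 1.24, adjusted p = 0.868, limma). A fit without knockout replicate 2 gave −1.49 (adjusted p = 0.14, unadjusted P = 0.000791), and a fit without knockout replicate 1 gave 0.021 (unadjusted P = 0.979). The adjusted p of Reln ran from 0.14 to 1.0 over its alternatives.

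Calb2, the gene of the calcium-binding protein calretinin (chr8:112661402-112692110, minus strand), gave 294.5, 347 and 177 normalized counts for wild type against 59.25, 306 and 142 for knockout. Knockout replicates 1 and 3 again lay below the wild type, while replicate 2 lay among the wild-type values. The log2 fold change was −0.93 (SE 0.58, 95% interval −2.29 to 0.43, adjusted p = 0.779). Without knockout replicate 2 it was −1.51 (adjusted p = 0.187, unadjusted P = 0.0051), so that Reln and Calb2 passed the fold and P rule in that fit, where 4.58% of all genes were lower, and the other 7 did not. Without knockout replicate 1 the value of Calb2 was −0.33. The adjusted p of Calb2 ran from 0.187 to 0.998 over its alternatives.

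Trp73 (chr4:153430358-153514317, minus strand) encodes p73, a transcription factor of the p53 family on which hem-derived Cajal-Retzius cells depend. Its normalized counts were 438, 683 and 456 for wild type against 263, 883 and 440.1 for knockout. Replicates 1 and 2 of the knockout were the lowest and the highest of the 6 libraries, and replicate 3 lay just above the lowest wild-type library. The log2 fold change was −0.14 (SE 0.43, 95% interval −1.15 to 0.87, adjusted p = 0.941), and it was −0.60 without knockout replicate 2 (adjusted p = 0.356) and 0.28 without knockout replicate 1 (adjusted p = 0.898). Of the exon bases of Trp73, 5.06% also lie in Gm13116, a gene on the opposite strand, and whether counting used strand was not stated. The same holds for 1.24% of the bases of Reln (Gm10475) and 1.36% of Cacna2d2 (Gm17141).

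The LIM homeodomain factors Lhx1 and Lhx5, which also act in the thalamus and ventral forebrain, had a different order of libraries. Lhx1 (chr11:84331479-84338923, minus strand) gave 111, 173 and 125 normalized counts for wild type against 210.2, 109 and 131 for knockout. Lhx5 (chr5:120881895-120891466, plus strand) gave 166, 410 and 303 for wild type against 409, 235 and 308 for knockout. Knockout replicate 1, the library lowest for Reln, Trp73, Calb2 and Nhlh2, was highest for Lhx1 and second highest for Lhx5, and knockout replicate 2 was lowest for Lhx1. The log2 fold changes were 0.10 for Lhx1 (SE 0.31, 95% interval −0.63 to 0.83, adjusted p = 0.941) and 0.18 for Lhx5 (SE 0.36, −0.68 to 1.03, adjusted p = 0.908). Summed diencephalon marker counts were 4865, 1619 and 2004 in knockout replicates 1 to 3, against 1066 to 2215 in the wild type. The part of these markers in the Lhx1 and Lhx5 values was not tested.

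Ebf2 (chr14:67852129-68048604, plus strand) and Ebf3 (chr7:144385356-144506128, minus strand) encode related transcription factors of the early B-cell factor family, found in several young neuron types. The wild-type libraries gave 365, 527 and 792 normalized counts of Ebf2, and the knockout libraries 382, 1312 and 500.4. For Ebf3 they gave 407, 588 and 648 for wild type against 583, 1022 and 491 for knockout. Both genes were highest in knockout replicate 2 and lowest in wild-type replicate 1, with the other libraries of both groups mixed between. The log2 fold changes were 0.24 for Ebf2 (SE 0.49, 95% interval −0.91 to 1.39, adjusted p = 0.905) and 0.30 for Ebf3 (SE 0.31, −0.42 to 1.03, adjusted p = 0.836).

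Cacna2d2 (chr9:107301943-107431677, plus strand) encodes an auxiliary subunit of voltage-gated calcium channels. It gave 602, 832 and 677 normalized counts for wild type against 607, 1737 and 603 for knockout, so that replicate 2 alone stood out and the other knockout libraries sat beside the lowest wild-type library. The log2 fold change was 0.30 (SE 0.41, 95% interval −0.67 to 1.27, adjusted p = 0.867). Nhlh2 (chr3:101814068-101819415, plus strand), a basic helix-loop-helix factor, varied least. Its normalized counts were 881, 934 and 1091 for wild type against 827, 961 and 858 for knockout, a highest-to-lowest ratio of 1.16 in the knockout and 1.24 in the wild type. Its log2 fold change was −0.13 (SE 0.14, 95% interval −0.46 to 0.19, adjusted p = 0.839), the narrowest interval of the 9.

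**Figure D2:**
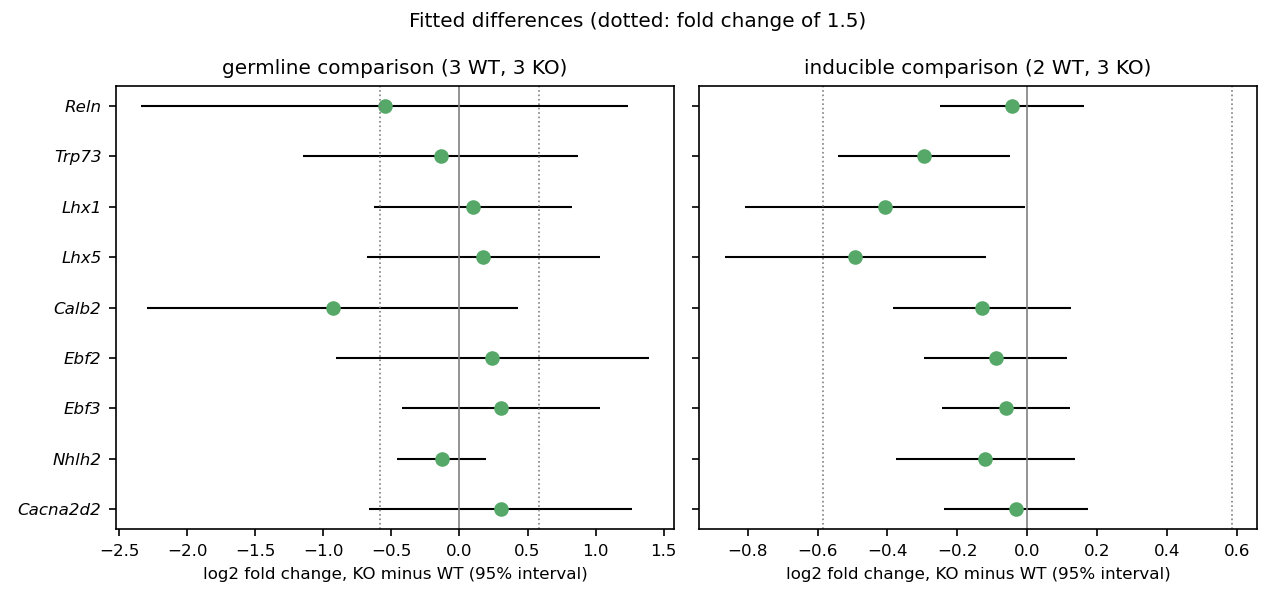
Log2 fold change, knockout minus wild type, of each gene in the germline and the inducible comparison, with bars for the 95% interval of the limma fit and dotted lines at a fold change of 1.5. The germline intervals all include 0, and in the inducible comparison those of Trp73, Lhx1 and Lhx5 lie below it.

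Read by library rather than by gene, knockout replicate 2 was the highest of the 6 germline libraries for Reln, Trp73, Ebf2, Ebf3 and Cacna2d2. Knockout replicate 1 was the lowest for Reln, Trp73, Calb2 and Nhlh2. Against the wild-type mean, 6, 3 and 8 of the 9 genes were lower in knockout replicates 1 to 3. The median of the 9 log2 differences from that mean was −0.22, 0.78 and −0.17 in the knockout libraries. The median of the pan-neuronal list was −0.98, 0.93 and −0.79 in the same libraries, and that of the early projection neuron list −0.78, 1.05 and −0.63. The part of tissue makeup in the values of these genes was not tested.

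As a percentage of the summed pan-neuronal counts of the same library, the Reln counts were 6.64, 8.86 and 4.72 for wild type against 3.98, 8.87 and 4.45 for knockout. On this scale knockout replicate 2 was level with the highest wild-type library, and knockout replicates 1 and 3 lay just under the lowest one. Of the 9 genes, only Cacna2d2 separated the groups on this scale, at 0.996, 1.33 and 1.26% for wild type against 2.04, 1.61 and 1.704% for knockout, where 0.194% of all genes tested lay lower and 3.37% higher without overlap. With the mean of the pan-neuronal genes as a covariate in limma, an alternative added after the data were seen, the log2 fold change of Cacna2d2 was 0.52 (unadjusted P = 0.00845, adjusted p = 0.133), in a fit where 21.2% of all genes reached P of 0.05 before adjustment. In the same fit that of Reln was −0.12, that of Calb2 −0.66 and that of Trp73 0.07.

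**Figure D3:**
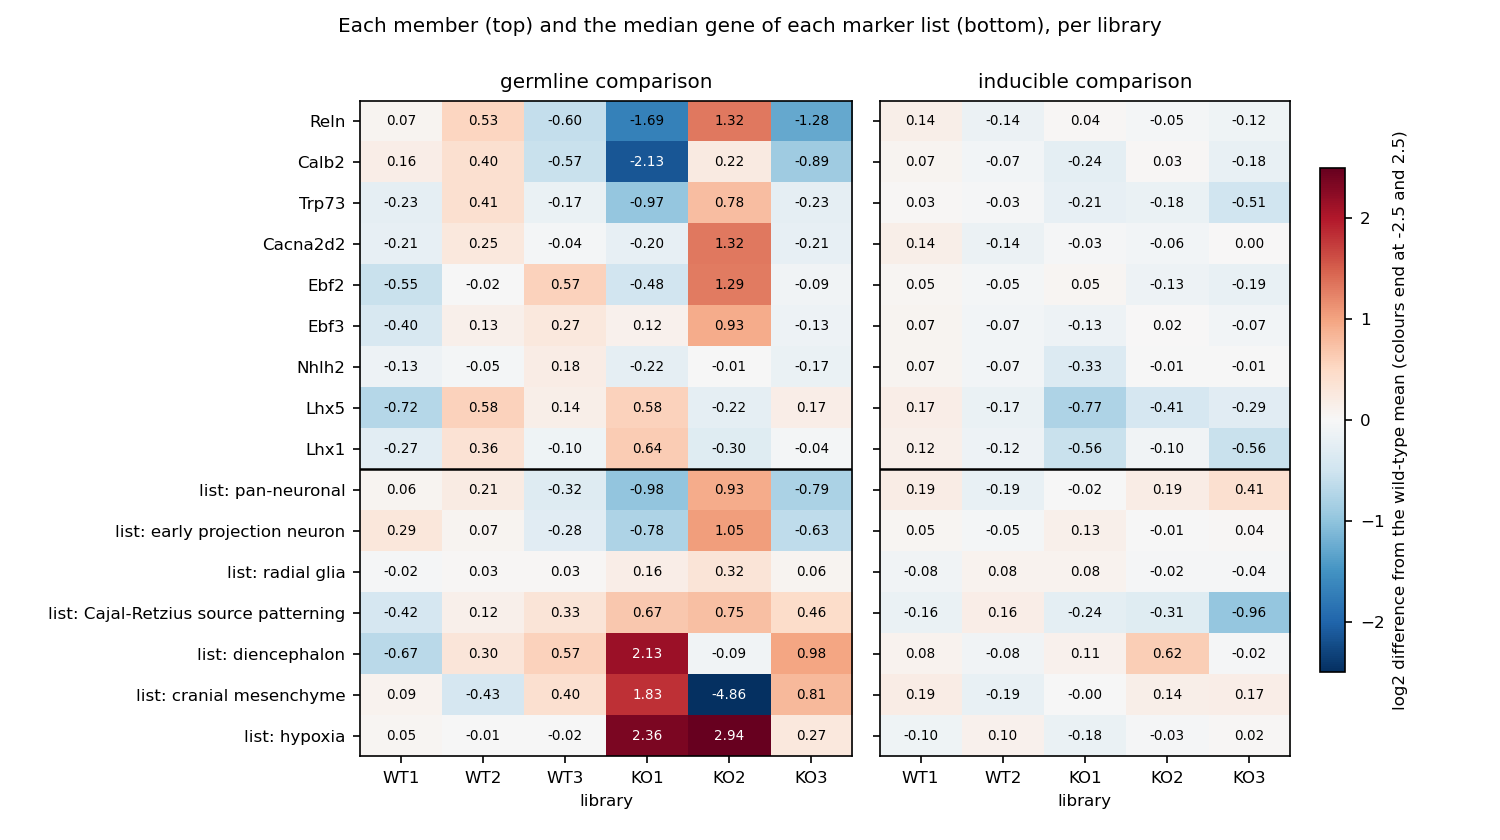
Log2 difference of each library from the wild-type mean of its comparison for the 9 genes and, below them, for the medians of gene lists; color gives the difference, and values beyond the ends of the scale share its end colors. Germline knockout replicate 2 is above the mean for 6 of the 9 genes and for the pan-neuronal and projection neuron lists, and far below it for cranial mesenchyme.

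The genes whose germline profile was most like that of Reln were ranked by Pearson's r of log2 values over the 6 libraries. These libraries share the differences in tissue makeup given above, and among 13938 genes many will rank high with so few points. The 5 closest were Ppap2b (r = 0.999), Kcnb2 (0.997), Mapt (0.997), Mmd (0.996) and Jph4 (0.996). Pearson's r does not weigh the size of the differences. The log2 range over the 6 libraries was 3.01 for Reln but 0.741 for Ppap2b and 0.744 for Mmd. For Kcnb2, Mapt and Jph4 it was 2.14, 2.53 and 2.42. Mapt, which encodes the axonal protein tau and is also on the pan-neuronal list, had 836, 4838 and 920.3 normalized counts in the knockout libraries and 2288, 2906 and 1613 in the wild type, the same order of libraries as Reln. The potassium channel gene Kcnb2 gave 49.6, 222 and 59.3 in the knockout and 128, 163 and 90.7 in the wild type. Among the other Cajal-Retzius genes r with Reln was 0.920 for Trp73, 0.888 for Calb2, 0.808 for Cacna2d2, 0.619 for Ebf2, 0.524 for Ebf3 and 0.413 for Nhlh2. For Lhx5 it was −0.41 and for Lhx1 −0.53. Ranked by r among the 13938 genes, Trp73 was at place 705, Calb2 at 1001 and Cacna2d2 at 1712. Ebf2 was at place 3254, Ebf3 at 3987, Nhlh2 at 4810, Lhx5 at 9990 and Lhx1 at 10764. Many genes outside the set were therefore closer to Reln than any of these 8 genes.

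The second question was whether the genes differed after inducible deletion. All 9 log2 fold changes were below 0, with a median of −0.12, beside −0.00191 over all genes, but none of the 9 passed the fold and P rule, by which 0.49% of the 14081 genes tested were lower and 0.802% higher. Without wild-type replicate 1, the highest library for 8 of the 9 genes, the median was −0.05 and 3 genes were above 0, and without wild-type replicate 2 the median was −0.19 with none above 0. An unadjusted P of at most 0.05 was reached by 3 of the 9, Lhx5, Trp73 and Lhx1, all lower in the knockout, where 6.01% of all genes reached it in either direction. Lhx5 and Trp73 had groups without overlap, where 12.2% of all genes lay lower and 10.4% higher without overlap. After adjustment over all genes 0 of 9 passed, beside 0.0355% of all genes. Without wild-type replicate 1, or with genes of low counts kept in the fit, none of Lhx5, Trp73 and Lhx1 reached P of 0.05 (unadjusted P = 0.107 to 0.238 and 0.0812 to 0.121). Trp73 also missed it without wild-type replicate 2 (unadjusted P = 0.0574), and Lhx1 without knockout replicate 1 (unadjusted P = 0.125) or replicate 3 (unadjusted P = 0.109). With the replicate number as a block, Trp73 (unadjusted P = 0.0729) and Lhx1 (unadjusted P = 0.152) missed it and Lhx5 alone reached it. Whether the numbers pair these libraries could not be decided.

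Lhx5, the LIM homeodomain factor, had the greatest log2 fold change of the 9. Its normalized counts were 877 and 692 for wild type against 456, 585 and 636 for knockout. Every knockout library lay below both wild-type libraries, although the lower wild type and the highest knockout were close. The means were 785 ± 131 (SD, n = 2) and 559 ± 93.0 (n = 3), a ratio of 0.712. The log2 fold change was −0.49 (SE 0.16, 95% interval −0.87 to −0.12, unadjusted P = 0.0166, adjusted p = 0.825). Over its alternatives the adjusted p ran from 0.0149 to 0.999, the lowest with the pan-neuronal mean as a covariate, a fit added after the data were seen in which the log2 fold change was −0.68 and 0.327% of all genes passed.

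Lhx1, its relative, gave 321 and 271 normalized counts for wild type against 199, 276 and 199.8 for knockout. Knockout replicate 2 lay between the wild-type libraries and the other knockouts lay below them. The log2 fold change was −0.41 (SE 0.17, 95% interval −0.81 to −0.01, unadjusted P = 0.0468, adjusted p = 0.825), with means of 296 ± 35.6 and 225 ± 44.1. Trp73 gave 1205 and 1153 for wild type against 1022, 1044 and 830.3 for knockout, all of the latter below both wild-type values. Its means were 1179 ± 36.8 and 965 ± 117, a ratio of 0.819, and the log2 fold change was −0.30 (SE 0.11, 95% interval −0.54 to −0.05, unadjusted P = 0.0249, adjusted p = 0.825).

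Reln lay within the wild-type range. Its normalized counts were 5147 and 4251 for wild type against 4804, 4514 and 4316 for knockout, so that every knockout library lay between the wild-type libraries. The log2 fold change was −0.04 (SE 0.09, adjusted p = 0.959), with a 95% interval from −0.25 to 0.16. That interval is much narrower than in the germline comparison. Calb2 gave 466 and 421 for wild type against 375, 452 and 392 for knockout, with knockout replicate 2 between the wild types, and a log2 fold change of −0.13 (SE 0.11, adjusted p = 0.887).

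For the remaining genes the groups overlapped and the log2 fold changes lay between −0.12 and −0.03. Ebf2 gave 1008 and 945 normalized counts for wild type against 1013, 889 and 856 for knockout, and was the only gene of the 9 that was not highest in wild-type replicate 1. Ebf3 gave 985 and 889 for wild type against 853, 948 and 894 for knockout. The Nhlh2 libraries held 1332 and 1209 for wild type against 1007, 1257 and 1258 for knockout, with only knockout replicate 1 below both wild types. Cacna2d2 gave 1378 and 1134 for wild type against 1221, 1197 and 1251 for knockout, all of the knockouts inside the wild-type range. Adjusted p-values of these 4 genes lay between 0.894 and 0.966.

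Other features of the inducible libraries moved with genotype. The 4 Y-linked genes summed to 1.96 and 4.24 normalized counts for wild type and to 2389 to 3209 for knockout, so embryo sex and genotype cannot be told apart in this comparison. In the germline comparison each group held libraries with these genes high and libraries with them near 0. The pan-neuronal median was 0.19 and −0.19 in the wild-type libraries and −0.02, 0.19 and 0.41 in the knockouts. Against the summed pan-neuronal counts, Lhx5 was 0.974 and 0.955% for wild type against 0.590, 0.697 and 0.644% for knockout. Lhx1 was 0.357 and 0.374% for wild type against 0.258, 0.329 and 0.202% for knockout, and Trp73 was 1.34 and 1.59% against 1.32, 1.24 and 0.840%. These 3 of the 9 genes were without overlap lower on this scale, and none was higher, where 7.01% of all genes tested lay lower and 2.5% higher without overlap.

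**Figure D4:**
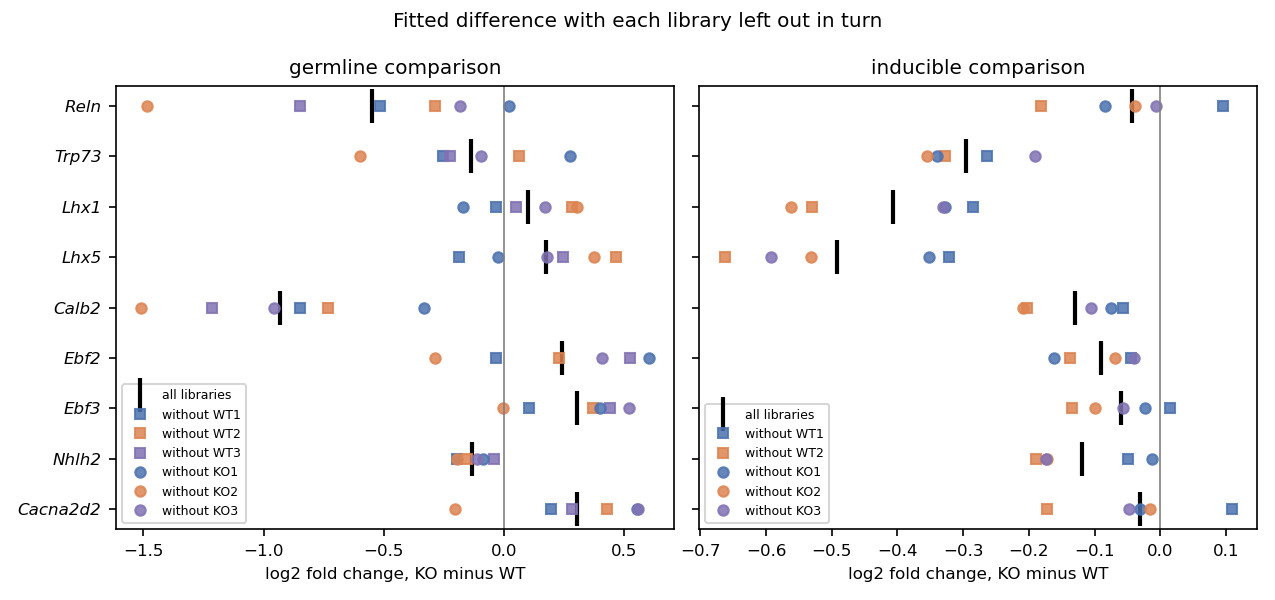
Log2 fold change of each gene with all libraries and with each library left out in turn, in both comparisons. Germline Reln and Calb2 are at −1.49 and −1.51 without knockout replicate 2, and inducible Lhx5 stays between −0.66 and −0.32.

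Genes around the set were read from lists. Of 10 reelin pathway genes 9 were in the tables and tested, and none passed the fold and P rule in either comparison. In the germline comparison their median log2 fold change was −0.07, with 1 of the 9 above 0. That gene, Vldlr, a reelin receptor, had a log2 fold change of 1.204 (SE 0.58, unadjusted P = 0.0748), while the other receptor, Lrp8, had −0.03 (SE 0.16), and in the inducible comparison they had −0.03 and 0.06; both receptors were named after their values were seen. Of 11 further Cajal-Retzius genes, none passed in either comparison, with medians of −0.03 and −0.04. Of 5 genes of the p53 family and its targets, none passed in either comparison.

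The list of signals and factors that pattern the hem and the other sources of these cells had medians of opposite sign in the 2 comparisons. In the germline comparison 6 of the 18 genes tested rose and none fell, with a median log2 fold change of 0.58 and 17 genes above 0. The 4 with the greatest change were Msx2, Rspo2, Wnt8b and Rspo1, of which Wnt8b, a Wnt ligand of the hem, gave 504, 774 and 1224 normalized counts for wild type against 1236, 1434 and 1769 for knockout. In the inducible comparison 3 of 18 fell (Msx2, Bmp6 and Rspo1) and none rose, with a median of −0.47 and 1 gene above 0. Rspo1, a secreted enhancer of Wnt signaling, gave 1592 and 1956 for wild type against 1196, 1265 and 639 for knockout. No gene of the list passed an adjusted p of 0.05 in either comparison, and the difference between the comparisons was not tested, as the tables were normalized separately. The summed counts of the list were lowest in inducible knockout replicate 3, at 13729. They were 19512 and 19901 in the other knockouts and 22297 and 23425 in the wild type.

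The germline values of the hem list and of the genes followed here can be set side by side by library. The median of the hem list over the wild-type mean was 0.67, 0.75 and 0.46 on the log2 scale in the knockout libraries. It was −0.42, 0.12 and 0.33 in the wild-type libraries, so wild-type replicate 3 lay near knockout replicate 3. The summed counts of the list were 6436, 9626 and 10180 for wild type against 14084, 12791 and 11275 for knockout. In the same knockout libraries Reln was at −1.69, 1.32 and −1.28 and Trp73 at −0.97, 0.78 and −0.23. The germline lists of pan-neuronal, early projection neuron, ventral telencephalon, diencephalon and cranial mesenchyme genes held no gene past the fold and P rule. Among 8 radial glia genes only Fabp7 fell, at 4339 to 7955 normalized counts for wild type and 2960 to 3230 for knockout, and among 4 genes of the olfactory placode and cranial sensory neurons only Eya2 rose. Of 12 hypoxia genes 9 rose, the 4 with the greatest change being Adm, P4ha2, Bnip3 and Vegfa, and Vegfa, for example, gave 5202 and 11873 normalized counts in knockout replicates 1 and 2, 1302 in replicate 3 and 821 to 1109 in the wild type. In the inducible comparison the pan-neuronal gene Syt4 and the hypoxia gene Ndrg1 rose. Syt4 was at 604 to 713 normalized counts against 342 and 445, and Ndrg1 at 46.6 to 60.3 against 26.7 and 31.5. The 4 Y-linked genes also passed as higher, although Ddx3y was at 2.0 in knockout replicate 2, against 0.98 and 1.07 in the wild type. Apart from the 3 hem genes named above, no gene of the other lists passed.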

How the data were processed

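Poly(A) RNA of E12.5 cortical cells was sequenced on an Illumina HiSeq2000. Alignment by the authors was to mm9, with TopHat (version 1.2.0 per the submitters' notes, while the study's methods name a later one). A read was counted once for its gene over the RefSeq exons, and the authors normalized each comparison on its own in edgeR (trimmed mean of M-values, TMM). The deposited signal is a normalized count per gene and library, not scaled by gene length. As most values are fractional, count models were left aside, and the depth in reads is unknown. TMM cannot show a change common to most genes.

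In limma 3.58.1 under R 4.3.3, lmFit and eBayes (trend on) were run on log2(normalized count + 1) within each table, with two-sided tests. A mean of at least 10 was required, and the genes above it entered the fit (13938 germline, 14081 inducible), with Benjamini-Hochberg adjustment over all of them. Genes were counted at a fold change of at least 1.5 with an unadjusted P of at most 0.05, and at an adjusted p under 0.05. The fit was also run on simulated data with noise drawn independently for each gene and library. Such data hold no shift shared by many genes, so they cannot check the P values where libraries differ that way. Levels per kb used the union of exon bases of GENCODE M1 on NCBIM37 (mm9). Promoters came from RefSeq on GRCm38.p6.

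The genes and the reference lists were chosen with earlier results of these data known. Named genes were those followed, Kif20a, at most 4 per list with the largest fold changes past the fold and P rule, and the 5 with the highest Pearson's r with Reln. Others are named as chosen later. Alternatives were pseudocounts of 0.5 and 5, no filter, quantile normalization, a replicate block, leaving out each library and, added after the data were seen, the pan-neuronal mean as a covariate. Samples were grouped by their labels.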

Additional observations from a re-analysis of the deposited data

How the results depend on the processing

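Pseudocounts of 0.5 and 5, quantile normalization and no filter on low values changed no gene's direction and no count past the fold and P rule. Leaving out single libraries moved the germline log2 fold changes of Reln from −1.49 to 0.021, Trp73 from −0.60 to 0.28, Lhx1 from −0.17 to 0.30, Lhx5 from −0.19 to 0.46, Ebf2 from −0.29 to 0.60, Ebf3 from −0.0063 to 0.52 and Cacna2d2 from −0.20 to 0.56, so that 11 of 54 such values changed sign. Calb2 (−1.51 to −0.33) and Nhlh2 (−0.20 to −0.04) kept theirs. The number of genes lower in the germline knockout ran from 0 to 2, the latter without knockout replicate 2, and the median of the 9 from −0.20 to 0.23. With the pan-neuronal mean as a covariate, germline Trp73 was at 0.068. In the inducible comparison Reln ran from −0.18 to 0.095, Ebf3 from −0.13 to 0.014 and Cacna2d2 from −0.17 to 0.11, and the other 6 genes kept their sign. The median of the 9 ran from −0.19 to −0.05. The number lower ran from 0 to 1, which was Lhx5 without wild-type replicate 2 (−0.66) or without knockout replicate 3 (−0.59). It was also 1 with the pan-neuronal covariate (Lhx5, −0.68). A replicate block gave the same fold changes as leaving out knockout replicate 3 (Lhx5, −0.59). No wild-type library shares that replicate number, so the block is not a separate alternative there. Same-numbered deviations correlated at −0.12, 0.31 and 0.25 in the germline and −0.35 and −0.05 in the inducible comparison. No correlation was computed between differently numbered libraries, so these values cannot decide whether the replicate numbers pair the libraries. The block left the count at 0 in the germline. Over all genes, 93 lower and 289 higher in the germline became 642 and 587 without knockout replicate 2, 403 and 617 without replicate 3, 42 and 115 or 46 and 133 without wild-type replicate 1 or 2, 55 and 146 without knockout replicate 1, and 695 and 607 with the covariate. With no filter the germline count lower was 161. The inducible counts of 69 and 113 became 151 and 196 with no filter, and 72 and 250 or 44 and 82 without wild-type replicate 1 or 2. The causes were not tested. With 2 or 3 libraries a group, leaving out a wild-type library of the inducible comparison assumes that the remaining one varies like the knockouts.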
